A study of Mus musculus with 16 samples.

Results

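Primary astrocytes of wild-type (WT) C57BL6J mice were exposed for 24 h to lipopolysaccharide and interferon-γ (LPS+IFNγ) or to vehicle, and their polyadenylated RNA was sequenced. The comparison described here holds 8 of the 16 libraries of the series, chosen by their labels as the WT libraries. There were 4 vehicle wells and 4 wells given 500 ng/mL LPS with 10 ng/mL IFNγ, and the vehicle was water. Both wells of a replicate held cells from the same set of pups, here called a litter, so each litter gives 1 stimulated and 1 vehicle library. The cells were taken from brains of pups at postnatal day 6 by the labels and the written methods (another passage of the study's text gives a younger age), bound to beads through the astrocyte surface antigen ACSA2, and grown for about 10 days in serum-free medium with the growth factor HB-EGF. The other 8 libraries come from Nlrx1-/- astrocytes given the same treatments and enter the estimate of the spread, the filter on low counts and a test of the difference between the genotypes. Every gene was tested with edgeR's quasi-likelihood test with litter as a term, p-values were adjusted over all 16066 genes tested, and a gene is called up or down at an adjusted p below 0.05. Levels of a gene are given as read counts per TMM-scaled library size (CPM), in litters 1 to 4 in that order. Levels of different genes are compared as TPM, which is also scaled to the length of the transcripts, and n is 4 wherever a mean ± SD is given.

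Astrocytes are the glial cells that take up glutamate and potassium, couple to each other through gap junctions and contact blood vessels and synapses. IFNγ binds a receptor whose kinases JAK1 and JAK2 activate transcription factors that bind the GAS element of promoters and raise IRF1 and other interferon regulatory factors, which bind the interferon-stimulated response element (ISRE). LPS is sensed by TLR4 with CD14 and MD-2, and the adaptors MyD88 and TRIF lead to NF-κB and to IRF3. Genes that hold both kinds of element, such as chemokines, are known targets of both signals.

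The promoters of 5 genes that rose are shown because they carry elements through which 1 or both of the agents are known to act. Each sequence runs from 250 bases before to 50 bases after the transcription start (RefSeq, build GRCm38.p6, 5′ to 3′ on the gene's strand), and capitals mark matches on either strand to the GAS letters TTCNNNGAA, the ISRE core GAAANNGAA or the NF-κB consensus.

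Irf1, chr11:53769764-53770063, strand +: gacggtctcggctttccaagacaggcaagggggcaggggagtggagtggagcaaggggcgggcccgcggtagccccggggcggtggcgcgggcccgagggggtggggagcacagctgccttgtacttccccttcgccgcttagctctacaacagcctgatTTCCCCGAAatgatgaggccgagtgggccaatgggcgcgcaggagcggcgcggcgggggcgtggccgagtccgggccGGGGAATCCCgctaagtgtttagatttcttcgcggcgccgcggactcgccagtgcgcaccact

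Igtp, chr11:58199306-58199605, strand +: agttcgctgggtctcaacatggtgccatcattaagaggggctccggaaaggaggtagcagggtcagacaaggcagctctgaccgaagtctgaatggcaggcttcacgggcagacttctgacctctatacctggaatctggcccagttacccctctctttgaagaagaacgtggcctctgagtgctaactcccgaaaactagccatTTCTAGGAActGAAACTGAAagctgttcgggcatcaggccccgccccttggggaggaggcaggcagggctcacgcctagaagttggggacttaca

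Gbp2, chr3:142620413-142620712, strand +: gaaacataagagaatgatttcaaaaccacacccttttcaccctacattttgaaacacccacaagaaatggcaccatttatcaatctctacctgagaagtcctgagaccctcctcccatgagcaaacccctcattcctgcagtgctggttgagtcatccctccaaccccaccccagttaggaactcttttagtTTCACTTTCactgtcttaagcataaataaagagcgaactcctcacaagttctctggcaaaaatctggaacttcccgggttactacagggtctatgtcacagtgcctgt

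Cxcl10, chr5:92348840-92349139, strand -: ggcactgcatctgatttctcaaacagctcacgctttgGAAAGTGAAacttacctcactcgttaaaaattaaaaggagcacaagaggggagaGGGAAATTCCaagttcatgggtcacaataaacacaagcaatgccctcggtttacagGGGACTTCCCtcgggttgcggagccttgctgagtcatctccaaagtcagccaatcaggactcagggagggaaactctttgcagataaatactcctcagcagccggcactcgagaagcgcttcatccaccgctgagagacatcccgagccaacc

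Nfkbia, chr12:55492598-55492897, strand -: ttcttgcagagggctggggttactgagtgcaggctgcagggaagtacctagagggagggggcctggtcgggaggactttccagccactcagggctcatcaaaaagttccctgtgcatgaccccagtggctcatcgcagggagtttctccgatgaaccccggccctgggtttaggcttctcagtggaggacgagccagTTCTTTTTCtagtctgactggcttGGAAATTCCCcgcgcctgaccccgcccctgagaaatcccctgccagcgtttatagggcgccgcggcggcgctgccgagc

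In the Irf1 promoter the GAS match began 90 bases before the start and the NF-κB match 13 bases before it. In Igtp a GAS match at -45 came before an ISRE core at -34, and in Gbp2 the single match was an ISRE core at -58. Cxcl10 held an ISRE core at -213 and NF-κB matches at -159 and -103, and Nfkbia an ISRE core at -53 and an NF-κB match at -29. None of these matches overlapped another. A further RefSeq start of Irf1 held none of the letters. No such letters were found in the same window of Psmb9, Tap1, Lcn2 or Ifi47. An ISRE core was held by 30.9% of the 291 promoters (234 genes) of genes called up by 3 or more on the log2 scale, against 7.25% of the 16221 promoters of all tested genes with one. For GAS the shares were 14.1% and 6.80%, and for NF-κB 12.4% and 5.35%. Among the 733 promoters of genes called down by 1 or more, the shares were 8.32% for the ISRE core, 6.96% for GAS and 6.96% for NF-κB. A gene can have several promoters, which may overlap, and a match says only that the letters are present.

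At 24 h, 3813 genes were called up, 23.7% of those tested, and 3240 were called down, 20.2%. The calls were lopsided in size, since 945 rose and 747 fell by 1 or more on the log2 scale, 345 rose and 46 fell by 3 or more, and 86 rose but 0 fell by 8 or more. The median change was 0.50 among genes called up and -0.55 among those called down, and -0.02 over all tested genes. All 4 litters moved in the called direction in 3758 of the 3813 genes called up and 3162 of the 3240 called down. Of the 345 genes called up by 3 or more, 242 had a mean below 1 CPM in vehicle, and 67 of the 345 had no read in any vehicle library. In 41 of those 67 the stimulated mean was at least 1 CPM. The libraries held 27259420 to 43752903 read pairs each. When libraries were scaled by their size alone, the median change over all genes was -0.18 rather than -0.02 and 31.1% of calls were upward rather than 54.1%, so the direction of small changes is relative to the scaling used.

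**Figure D1:**
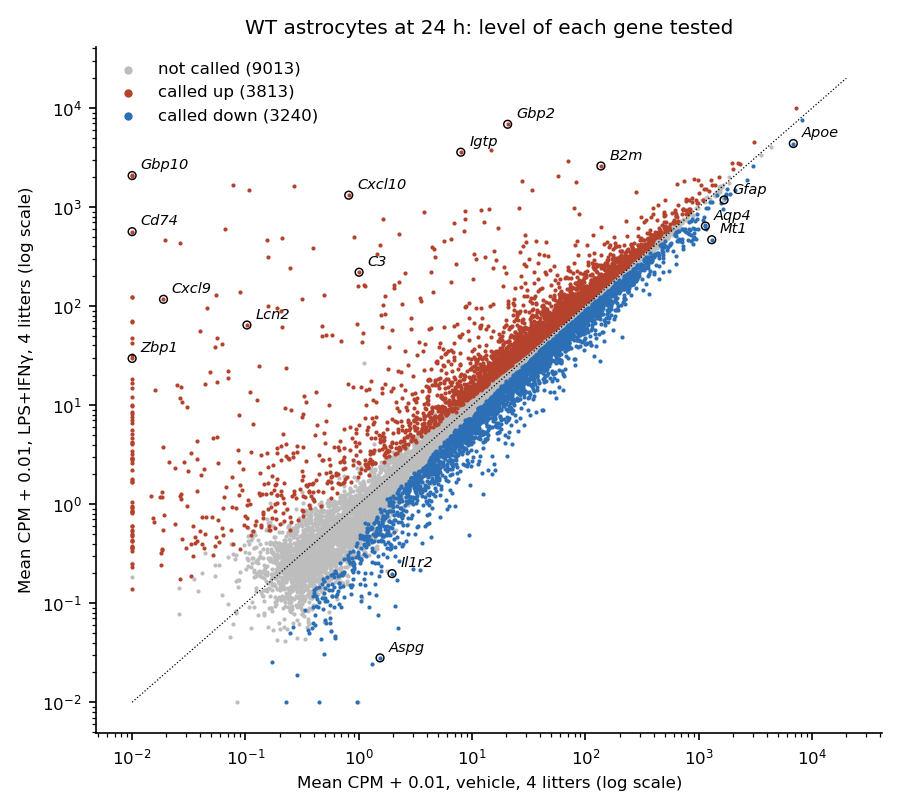
Mean CPM of each tested gene in vehicle (x axis) and after LPS+IFNγ (y axis) over 4 WT litters, both on log scales with 0.01 added. Points are coloured by call (3813 up, 3240 down, 9013 not called), and 242 of the 345 genes called up by 3 or more on the log2 scale start from a vehicle mean below 1 CPM.

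The most abundant transcripts of these cells changed their order. B2m, the light chain of MHC class I, rose from rank 236 by TPM in vehicle to rank 1, from 548 ± 42.5 TPM to 9006 ± 1058 TPM (SD, n = 4). The GTPase Gbp2 rose from rank 7246 to rank 7, at 18.5 ± 3.796 TPM in vehicle and 5346 ± 369.8 TPM after LPS+IFNγ. Igtp moved from rank 9699 to 21, H2-K1 from 1772 to 22, Cxcl10 from 12404 to 32, H2-D1 from 2331 to 48 and Ifitm3 from 787 to 56. Genes called up by 3 or more held 0.195% of all TPM in vehicle and 6.94% after LPS+IFNγ, with a range over litters of 6.29 to 7.81%. In the other direction Apoe, the lipid carrier that astrocytes secrete, went from rank 1 at 12341 ± 3513 TPM to rank 4 at 6837 ± 2128 TPM. The metallothionein Mt1 went from rank 3 to 29, at 9469 ± 2253 TPM and 2942 ± 395 TPM. TPM sums to a fixed total, so a gene whose CPM holds steady loses TPM when others gain, and for Eef1a1, a translation factor, the level fell from 10536 ± 345 TPM to 8475 ± 309 TPM while its fitted log2 change was -0.10 ± 0.04 (SE), adjusted p = 0.0409.

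**Figure D2:**
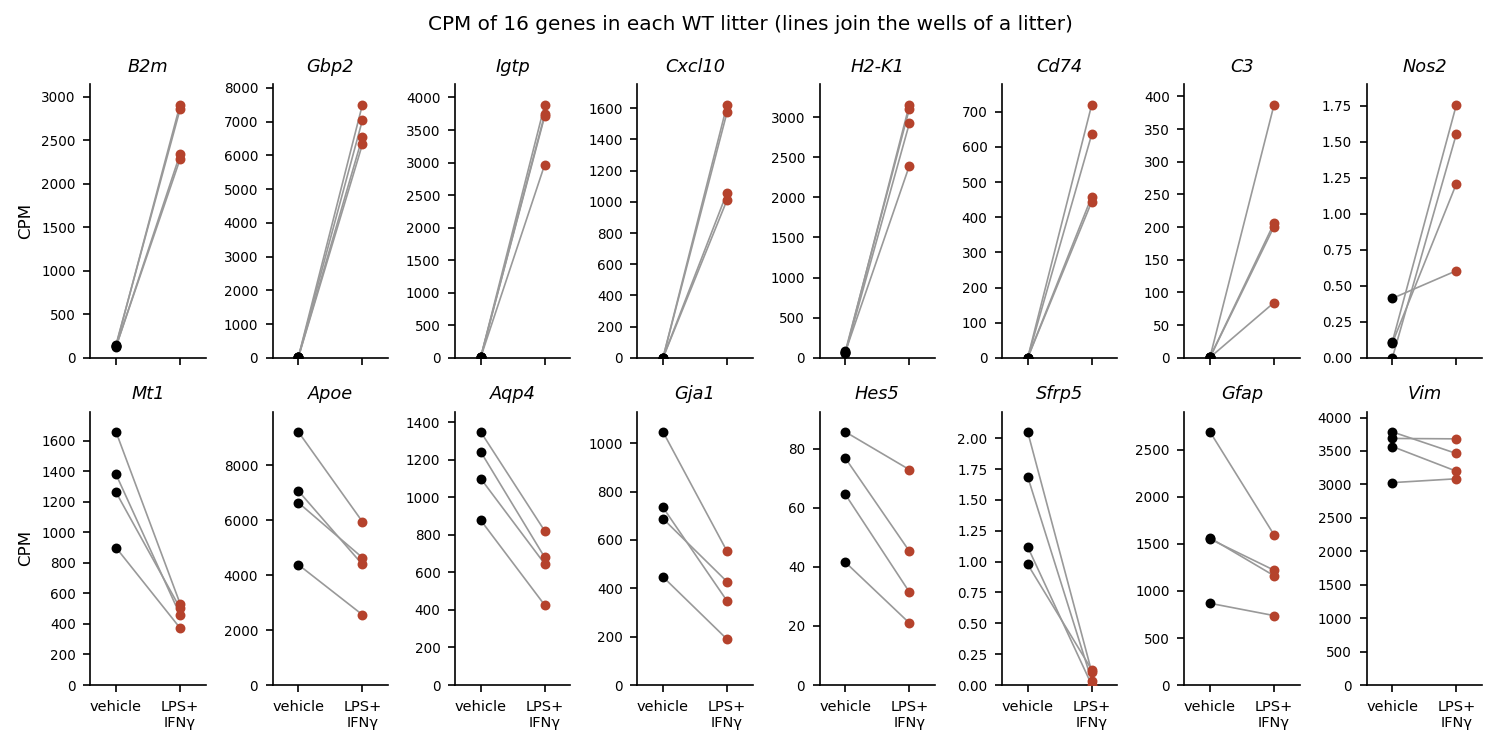
CPM of 16 genes in the 4 WT litters, with a line from the vehicle well (black) to the LPS+IFNγ well (red) of each litter and a linear axis from 0 for each gene. The upper row rose in every litter, from near 0 for Gbp2, Igtp, Cxcl10 and Cd74. In the lower row Mt1, Apoe, Aqp4, Gja1, Hes5 and Sfrp5 were called down, while Gfap and Vim were not called.

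Among the components of the IFNγ receptor pathway, the kinases and transcription factors named here rose. Of 10 genes listed for receptor signalling, 6 were called up and 1 down. Stat2, a transcription factor of type I interferon signalling, was at 23.4, 26.2, 27.2 and 27.8 CPM in vehicle and 338, 356, 292 and 422 CPM after LPS+IFNγ, a log2 change of 3.74 ± 0.16 (SE), adjusted p = 2.45e-08. Every stimulated library was above every vehicle library. Stat3 rose by 1.11 ± 0.06 (SE). Jak2 rose by 0.81 and Jak1 by 0.30, whereas the receptor chain Ifngr2 fell with a change of -0.19 ± 0.07 (SE), adjusted p = 0.0377 and Ifngr1 was at -0.17 with an adjusted p of 0.0649. Ifngr2, the single member called down, was not called when any 1 litter was left out, without the litter term or without the filter on low counts.

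The inhibitor Socs1, which blocks JAK kinases, was at 2.83, 1.72, 1.61 and 2.03 CPM in vehicle and 132, 151, 138 and 187 CPM after LPS+IFNγ. That is a log2 change of 6.22 ± 0.19 (SE), adjusted p = 1.53e-09, with no overlap between the groups. Of 10 SOCS and PIAS genes listed, 2 (20%) rose and 1 (10%) fell, no more than the 23.7% and 20.2% of all genes tested. Socs3 rose by 0.47 ± 0.15 (SE) and Socs2 fell, at -1.09 ± 0.29 (SE), adjusted p = 0.0112. Without litter 1, 2 or 4 only 1 member was called up, and without litter 2 or 4 the call of Socs2 was lost.

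Of 7 interferon regulatory factors tested, 6 were called up. Irf1, the founding member of the family, was at 14.7, 13.1, 13.3 and 10.1 CPM in vehicle and 668, 733, 707 and 739 CPM after LPS+IFNγ (chr11:53660812-53669200, build GRCm39), a log2 change of 5.80 ± 0.10 (SE), adjusted p = 1.83e-11. Irf8, best known from myeloid cells, was at 2.24, 1.26, 0.8899 and 1.31 CPM in vehicle and 293, 339, 337 and 374 CPM after LPS+IFNγ and changed by 7.92 ± 0.20 (SE). Every stimulated library was far above every vehicle library for both genes. Irf7 rose by 5.59 ± 0.29 (SE), Irf5 by 4.42 ± 0.96 (SE), Irf9 by 2.35 ± 0.11 (SE) and Irf2 by 1.74 ± 0.09 (SE). Irf3, which is activated by phosphorylation, was at -0.06 with an adjusted p of 0.503.

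Interferon-inducible GTPases, which act on vacuoles that hold microbes, gave some of the largest rises. All 10 of 10 guanylate-binding proteins and all 11 of 11 immunity-related GTPases tested were called up, with median log2 changes of 8.54 and 11.16. The summed level of the guanylate-binding proteins went from 47.3 ± 5.12 TPM to 10613 ± 873 TPM (SD, n = 4), and that of the immunity-related GTPases from 44.1 ± 2.33 TPM to 10333 ± 742 TPM. Gbp2 (chr3:142326349-142343779) was at 15.4, 24.8, 18.5 and 23.6 CPM in vehicle and 6325, 7040.3, 6541 and 7497 CPM after LPS+IFNγ, a change of 8.40 ± 0.21 (SE), adjusted p = 3.54e-10. Igtp, also known as Irgm3, was at 8.14, 8.12, 8.305 and 7.17 CPM in vehicle and 2969, 3715, 3741 and 3888 CPM after LPS+IFNγ, a change of 8.81 ± 0.10 (SE), adjusted p = 8.89e-13. For both, the vehicle and stimulated libraries were far apart in every litter. Irgm1, which regulates the other family members, rose by 6.05 ± 0.10 (SE) and Ifi47 by 13.30 ± 0.14 (SE).

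Several GTPases were assigned no read in vehicle. Gbp10 was assigned 0 reads in the 4 vehicle libraries and 1818, 2028, 1919.6 and 2549.6 CPM after LPS+IFNγ, and no fold is given because its reads could have gone to Gbp6, which was detected in vehicle. Tgtp2 was assigned 0 vehicle reads and 1873, 2188, 2045 and 2261 CPM, likewise with no fold because of its copy Tgtp1. Gbp8 had 1 read in vehicle and 402, 461, 444 and 573 CPM after LPS+IFNγ, a ratio of 64561, with a 95% counting interval of 11587 to 2550000, where the interval covers counting error only. Several of these genes have near-identical copies (Tgtp1 with Tgtp2, Gbp6 with Gbp10), and how their reads were divided is uncertain. Iigp1, a much used marker of reactive astrocytes, was at 0.218, 0.173, 0 and 0 CPM in vehicle and 1432, 1563, 1507 and 1395 CPM after LPS+IFNγ. Its fitted change was 14.02, and 12.04 from the deposited CPM, of which the transcripts summed here hold 69.5%.

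All 28 of 28 antiviral effectors tested rose, with a median log2 change of 5.24, and their summed level went from 620.5 ± 33.5 TPM to 6165 ± 764 TPM. Ifitm3, which blocks fusion of viruses with endosomes, was at 39.9, 40.4, 36.6 and 30.01 CPM in vehicle and 439.6, 488, 419 and 479 CPM after LPS+IFNγ. Its log2 change was 3.64 ± 0.12 (SE), adjusted p = 3.86e-09. The ubiquitin-like Isg15 rose by 7.13 ± 0.20 (SE), the tetherin Bst2 by 6.32 ± 0.09 (SE), viperin (Rsad2) by 5.68 ± 0.18 (SE) and the deconjugating protease Usp18 by 4.87 ± 0.34 (SE). Mx1 had 0 reads in vehicle and was at least 469-fold higher after LPS+IFNγ when the vehicle is set to a floor of 3 reads over its 4 libraries. Mx1 is known to make no working protein in this strain. The oligoadenylate synthetase Oas1a rose by 9.34 ± 0.41 (SE), while Oas1g, Oas2 and Oas3 were assigned no vehicle read. The transcripts summed here hold 76.2% of the CPM deposited for Oas2, whose deposited values gave a change of 4.85. Zbp1, a sensor of left-handed nucleic acid, was at least 1370.2-fold higher, with 0 CPM in every vehicle library and 20.2, 32.98, 25.4 and 39.7 CPM after LPS+IFNγ. The smallest change of the list was Ifitm2 at 0.32 ± 0.09 (SE), adjusted p = 0.0167.

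Among sensors of RNA and DNA, 11 of 13 rose and 0 fell. The RNA helicases Ddx58 (RIG-I) and Ifih1 (MDA5) rose by 2.39 ± 0.20 (SE) and 3.14 ± 0.18 (SE), and Dhx58 (LGP2) from 0 vehicle reads was at least 685-fold higher. Cgas and Sting1 of the DNA pathway rose by 1.43 ± 0.19 (SE) and 2.44 ± 0.15 (SE). Mavs, the mitochondrial adaptor of the RNA helicases, was at 0.08 (adjusted p = 0.335), and Nlrx1, a mitochondrial member of the NLR family, was at 22.7, 18.1, 17.8 and 19.2 CPM in vehicle and 17.4, 17.5, 17.9 and 18.9 CPM after LPS+IFNγ, a change of -0.11 ± 0.13 (SE), adjusted p = 0.501. Those 2 genes were the members that were not called. Of 9 PARP family genes and partners, 7 rose, led by Parp14 at 6.44 ± 0.16 (SE) and Parp10 at 6.23 ± 0.17 (SE), while the DNA repair enzymes Parp1 and Parp2 were at 0.12 and 0.06 and were not called.

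Genes of peptide presentation on MHC class I rose. Of 14 class I genes 13 were called up, with a median log2 change of 5.26, and their summed level went from 845 ± 53.8 TPM to 18228 ± 2010.4 TPM. B2m (chr2:121977957-121983594) was at 125, 152, 131 and 138 CPM in vehicle and 2342, 2856, 2284 and 2908 CPM after LPS+IFNγ, a change of 4.24 ± 0.08 (SE), adjusted p = 2.50e-11. The heavy chains H2-K1 and H2-D1 rose by 5.37 ± 0.16 (SE) and 5.15 ± 0.06 (SE), H2-T23 by 7.87 ± 0.13 (SE), and their transactivator Nlrc5 by 6.35 ± 0.11 (SE). All stimulated libraries lay above all vehicle libraries for each of these genes. The one member not called was Cd1d1, which presents lipids, at -0.27 with an adjusted p of 0.124. All 13 of 13 genes for the immunoproteasome and peptide loading rose, including the transporter Tap1 at 6.31 ± 0.08 (SE), tapasin (Tapbp) at 3.61 ± 0.08 (SE) and the trimming peptidase Erap1 at 3.24 ± 0.08 (SE).

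The catalytic subunits of the proteasome exist in a constitutive and an inducible form that compete for the same place. Psmb8 was at 2.12, 3.11, 2.42 and 1.301 CPM in vehicle and 489.6, 536, 567 and 537 CPM after LPS+IFNγ, a change of 7.92 ± 0.19 (SE), adjusted p = 2.07e-10. Its share of the TPM of the pair Psmb8 and Psmb5 went from 2.45 ± 0.669% to 79.9 ± 1.98% (SD, n = 4). The share of Psmb9 in its pair with Psmb6 went from 2.32 ± 0.243% to 81.1 ± 1.75%, and that of Psmb10 in its pair with Psmb7 from 5.76 ± 0.486% to 57.6 ± 2.80%. The constitutive partners did not fall. Psmb5, Psmb6 and Psmb7 rose by 0.61 ± 0.08 (SE), 0.58 ± 0.06 (SE) and 0.54 ± 0.07 (SE), and all 14 of 14 core subunits rose with a median of 0.85.

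**Figure D3:**
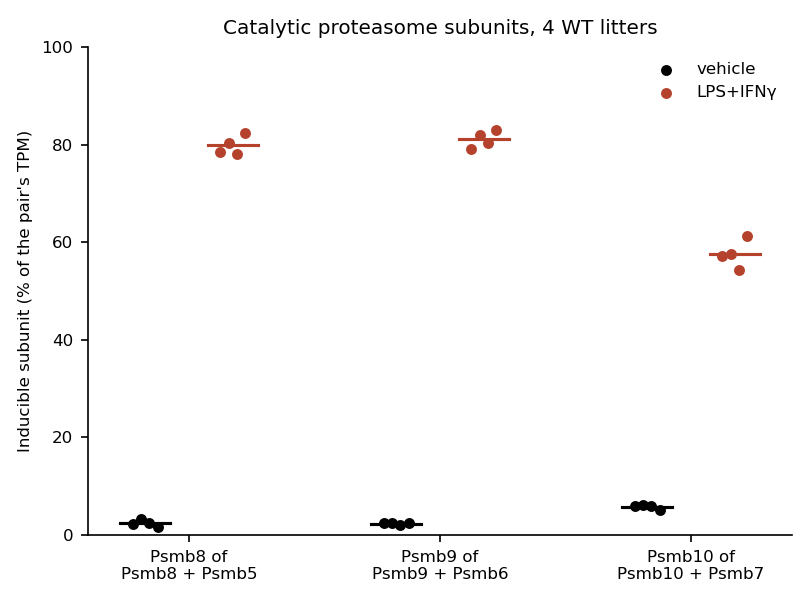
Share of the inducible subunit in the TPM of each pair of catalytic proteasome subunits, in %, for the 4 WT litters in vehicle (black) and after LPS+IFNγ (red), with lines at the means. The inducible subunit held at most 6.10% in vehicle and at least 54.4% after LPS+IFNγ.

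MHC class II, which presents peptides to CD4+ T cells, was almost absent in vehicle. Of 11 genes listed, 8 were tested and all 8 rose, with a median log2 change of 9.40. H2-Oa, H2-Ob and Ctss did not pass the filter on low counts. The summed level of the list went from 9.78 ± 2.39 TPM to 4173 ± 485 TPM. The invariant chain Cd74 had 0 reads in the 4 vehicle libraries and was at 444, 636, 459 and 719.6 CPM after LPS+IFNγ, at least 26149-fold higher. H2-Aa had 3 vehicle reads and 389, 463, 413 and 486 CPM after LPS+IFNγ, a ratio of 20251, with a 95% counting interval of 6929.5 to 98199. The groups did not overlap for any of the 8 genes, against 19.9% of all tested genes in which every stimulated library lay above every vehicle library. Genes this low in vehicle pass the filter mainly through stimulated libraries, so that contrast was largely fixed beforehand and is no added support. The class II transactivator Ciita rose by 9.86 ± 0.45 (SE), or by 8.33 from the deposited CPM, of which 71.3% is held by the transcripts summed here. Of 11 ligands of T cells and adhesion molecules, 10 rose. Cd274 (PD-L1) was at 0.915, 1.17, 0.857 and 0.956 CPM in vehicle and 145, 159, 163 and 175 CPM after LPS+IFNγ, a change of 7.38 ± 0.11 (SE), adjusted p = 6.38e-12. Lgals9 rose by 6.38 ± 0.29 (SE), Icam1 by 5.25 ± 0.11 (SE), Cd40 by 3.27 ± 0.76 (SE) and Vcam1 by 2.21 ± 0.19 (SE), and Tnfsf9 was at -0.35 and not called.

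Chemokines for T cells, monocytes and neutrophils rose. Of 11 CXC chemokines listed, 9 were tested and all 9 were called up, with a median log2 change of 4.55, or 7.42 without litter 1. Cxcl3 and Cxcl17 had no reads in any WT library. Cxcl10, a ligand of CXCR3 on T cells, was at 0.626, 1.24, 0.529 and 0.823 CPM in vehicle and 1060.1, 1575, 1012 and 1623 CPM after LPS+IFNγ, a change of 10.71 ± 0.31 (SE), adjusted p = 1.00e-09. Cxcl9, another CXCR3 ligand, had 1 read in vehicle and 99.3, 133, 85.9 and 149.5 CPM after LPS+IFNγ, a ratio of 16315, with a 95% counting interval of 2928 to 644410. Cxcl1, which attracts neutrophils, had 3 vehicle reads and 12.2, 12.6, 4.704 and 9.17 CPM, a ratio of 451, with a 95% counting interval of 154 to 2189. Every stimulated library exceeded every vehicle library for these 3 genes. Cxcl12, made by astrocytes at rest, rose by 0.92 ± 0.31 (SE), Cxcl14 by 1.25 ± 0.12 (SE) and Cxcl16 by 3.08 ± 0.18 (SE).

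Of 16 genes listed as CC chemokines, with Cx3cl1 among them, 7 passed the filter on low counts, of which 5 rose and 0 fell. Ccl3 had at most 12 reads in any WT library and Ccl4 at most 3, while Ccl9, Ccl19 and Ccl20 had none. A gene silent in vehicle passes the filter mainly where it is induced, so the counts in both chemokine lists cover detected genes alone. Ccl2, which attracts monocytes, was at 0.2298, 0.175, 0 and 0.188 CPM in vehicle and 85.5, 131, 83.6 and 102 CPM after LPS+IFNγ, a change of 9.48 ± 0.31 (SE), adjusted p = 3.33e-09. Ccl5 and Ccl7 had 0 vehicle reads and were at least 1947-fold and 1487-fold higher. The median log2 change of this list was 7.97 as fitted and 5.45 with the genes without a vehicle read set at their bound, while the other list medians printed did not move. Ccl25 and Ccl27a were at -0.15 and -0.38 and not called.

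Cytokine genes were a mixed group. Of 10 tested, 8 rose and 1 fell. The death ligand Tnfsf10 (TRAIL) was at 0.0325, 0, 0.109 and 0 CPM in vehicle and 71.9, 94.1, 84.9 and 131 CPM after LPS+IFNγ, a change of 11.01 ± 0.36 (SE), adjusted p = 2.99e-09. The B cell factor Tnfsf13b (BAFF) rose by 4.10 ± 0.59 (SE), Il15 by 2.16 ± 0.34 (SE), Lif by 2.76 ± 0.36 (SE) and Csf1, a growth factor for microglia, by 1.91 ± 0.15 (SE). Il33, an alarmin stored in the nucleus, fell by 1.19 on the log2 scale from 39.4, 49.3, 36.9 and 45.3 CPM to 15.5, 22.7, 17.2 and 19.96 CPM (adjusted p = 2.48e-05). Classical products of LPS-stimulated macrophages were near the detection limit at 24 h and were not tested. Tnf had at most 19 reads in any WT library, Il6 at most 9, Il1b at most 1, and Il1a and Ccl20 none.

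Among genes that link TLR4 to NF-κB, several receptors and an adaptor rose. Of 22 genes upstream of NF-κB, 10 rose and 3 fell, a median of 0.26. The 3 down calls became 1 without litter 1 or without the litter term, 0 without litter 2 or litter 3, and 7 with libraries scaled by size alone. Tlr2, the receptor for bacterial lipopeptides, rose by 5.95 ± 0.24 (SE), Tlr3 by 2.22 ± 0.12 (SE), Tlr4 by 1.65 ± 0.17 (SE) and Myd88 by 2.54 ± 0.15 (SE). The co-receptors Cd14 and Ly96 (MD-2) were at 0.12 and 0.48 and not called. The inhibitory kinase Irak3 fell, at -1.93 ± 0.66 (SE), adjusted p = 0.0351, from 0.405, 0.3797, 0.384 and 0.373 CPM to 0.188, 0.127, 0 and 0.114 CPM. Of 19 NF-κB subunits and inhibitors, 15 rose and 1 fell, with a median of 0.87.

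Among the subunits Nfkb2 rose by 1.06 ± 0.09 (SE), Relb by 1.45 ± 0.09 (SE), Rel by 0.84 ± 0.14 (SE) and Nfkb1 by 0.61 ± 0.10 (SE), while Rela was at 0.13 and not called. Inhibitors of NF-κB rose too. Nfkbia, whose promoter is printed above, was at 23.01, 23.6, 21.8 and 21.5 CPM in vehicle and 41.6, 67.6, 60.2 and 82.4 CPM after LPS+IFNγ, a change of 1.45 ± 0.20 (SE), adjusted p = 0.000176. The deubiquitinase Tnfaip3 (A20) rose by 3.25 ± 0.30 (SE), the atypical IκB proteins Bcl3 and Nfkbiz by 4.22 ± 0.40 (SE) and 2.50 ± 0.18 (SE), and Birc3 by 2.30 ± 0.26 (SE). Traf1 was the member called down, at -0.57, and was not called when any 1 litter was left out.

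Complement genes rose in the early steps of the classical and alternative pathways. Of 14 tested, 8 rose and 2 fell. C3, where the pathways meet, was at 0.737, 1.12, 0.801 and 1.33 CPM in vehicle and 84.6, 206, 201 and 387 CPM after LPS+IFNγ (chr17:57510964-57535155), a change of 7.77 ± 0.18 (SE), adjusted p = 1.34e-10. Its stimulated levels spread from 84.6 CPM in litter 1 to 387 CPM in litter 4, all above the highest vehicle level. C1ra and C1s1 rose by 6.29 ± 0.12 (SE) and 5.68 ± 0.13 (SE), C2 by 5.99 ± 0.29 (SE), Cfb by 4.95 ± 0.73 (SE) and C4b by 2.37 ± 0.26 (SE). The C1 inhibitor Serping1 rose by 6.65 ± 0.22 (SE), Cfp and Cd59a fell, at -0.84 and -0.77, and clusterin (Clu) was at -0.11 and not called. Without litter 1 or litter 3 only 1 of the falls was called.

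More markers of reactive astrocytes rose than fell, and several were not called. Of 13 acute phase and reactive markers, 6 (46.2%) rose and 2 (15.4%) fell, against 23.7% up and 20.2% down of all genes tested. The share that fell was thus no larger than that of all genes. Lcn2, an iron-binding lipocalin, was at 0.1004, 0, 0 and 0.272 CPM in vehicle and 39.6, 76.2, 47.5 and 94.2 CPM after LPS+IFNγ, a change of 9.38 ± 0.33 (SE), adjusted p = 5.85e-09. Steap4 rose by 3.20 ± 0.27 (SE), Timp1 by 1.99 ± 0.34 (SE) and the hyaluronan receptor Cd44 by 1.43 ± 0.07 (SE). The intermediate filament Gfap was at 869, 1565, 1553 and 2692 CPM in vehicle and 738, 1162, 1221 and 1597 CPM after LPS+IFNγ, a change of -0.44 ± 0.21 (SE), adjusted p = 0.113 and was not called. The stimulated level was lower in each of the 4 litters, but the vehicle levels of the litters were spread widely and the groups overlapped. Vimentin (Vim) was at -0.07 and Serpina3n at -0.22, and neither was called. The small heat shock protein Hspb1 fell, at -1.43 ± 0.36 (SE), adjusted p = 0.00839. Of 11 markers that the literature assigns to the A1 state, 7 (63.6%) rose and 2 (18.2%) fell. Among those that rose, Iigp1, Gbp2, Psmb8, H2-T23, Serping1 and H2-D1 are also members of the interferon, class I, proteasome or complement lists. Of 11 assigned to the A2 state, 7 (63.6%) rose, among them Ptx3 by 2.99 ± 0.33 (SE) and Ptgs2 by 2.57 ± 0.55 (SE), and 2 (18.2%) fell, Emp1 and Tm4sf1. Leaving out any 1 litter left 1 fall in the A1 list, leaving out litter 2 or 4 left 1 in the A2 list, and without the litter term 4 of the A2 list were called up.

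Genes of inflammatory cell death rose. Of 24 cell death genes, 17 were called up and 2 down. Casp1, which cleaves pro-IL-1β, was at 0.913, 1.35, 0.9004 and 1.04 CPM in vehicle and 37.3, 46.8, 39.96 and 48.6 CPM after LPS+IFNγ, a change of 5.37 ± 0.17 (SE), adjusted p = 2.95e-09. Casp4, the mouse sensor of LPS in the cytosol, was at 0.222, 0.1801, 0 and 0 CPM in vehicle and 9.602, 17.3, 11.7 and 15.96 CPM after LPS+IFNγ, a change of 7.33 ± 0.58 (SE), adjusted p = 3.52e-06. Both genes were low in all vehicle libraries and higher in all stimulated ones. The pore-forming substrate Gsdmd rose by 4.65 ± 0.30 (SE), the adaptor Pycard (ASC) by 3.87 ± 0.29 (SE), and Mlkl, the effector of necroptosis, by 6.70 ± 0.48 (SE), while its kinase Ripk3 was at -0.11 and not called. In the apoptotic arm Casp8 rose by 1.55 ± 0.16 (SE), and the protective genes Bcl2l1 and Cflar rose by 0.65 and 0.66. Casp6 and Bcl2l11 fell, at -0.32 and -0.31, but neither was called without litter 1, without litter 4 or without the litter term, and 1 of them was called without litter 3.

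Enzymes that make immune metabolites were induced to different levels. Nos2, the inducible nitric oxide synthase, was at 0.104, 0.112, 0.413 and 0 CPM in vehicle and 1.21, 1.76, 0.605 and 1.56 CPM after LPS+IFNγ, a change of 3.22 ± 0.88 (SE), adjusted p = 0.0127. Even its highest level was low beside the chemokines. Of 10 genes for nitric oxide and itaconate 6 rose and 1 fell. Acod1, which makes itaconate, had 0 vehicle reads and was at least 197-fold higher. Gch1, the first enzyme of the cofactor tetrahydrobiopterin, rose by 2.11 ± 0.20 (SE), and the arginine transporter Slc7a1 by 1.13 ± 0.26 (SE), whereas Slc7a2 fell, at -0.91 ± 0.07 (SE), adjusted p = 2.37e-06. Of 5 tested for tryptophan and NAD, 3 rose and 2 fell. Nampt of the salvage pathway rose by 1.89 ± 0.12 (SE), and the NAD hydrolase Cd38 fell by 2.07 on the log2 scale, from 2.5999, 5.97, 5.18 and 7.23 CPM to 0.964, 1.23, 0.945 and 1.72 CPM (adjusted p = 0.00695). Of 12 prostaglandin genes 5 rose and 2 fell. The synthetic enzymes Ptgs2 and Ptges rose by 2.57 and 1.94, and Hpgd, which inactivates prostaglandins, fell, at -3.32 ± 0.78 (SE), adjusted p = 0.00663. Without litter 1, 2 or 4, 1 of the prostaglandin genes was called down, and without the litter term 0 were.

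Genes of cholesterol synthesis rose together. All 24 of 24 genes listed were called up, 20 of them by 1 or more, with a median log2 change of 1.30. Fdps, at the branch to isoprenoids, was at 93.5, 66.4, 57.04 and 64.99 CPM in vehicle and 276, 263, 237 and 206 CPM after LPS+IFNγ, a change of 1.82 ± 0.10 (SE), adjusted p = 3.28e-07. Its groups did not overlap. Lss and Nsdhl rose by 1.84 ± 0.09 (SE) and 1.84 ± 0.11 (SE), and Insig1, which holds the pathway's transcription factor in the endoplasmic reticulum, by 1.56 ± 0.13 (SE). The list for lipid export moved less evenly, with 6 of 13 genes (46.2%) up and 3 (23.1%) down, against 23.7% and 20.2% of all genes tested. Its largest rises were Apol9b and Apol9a, which lie in a run of 4 neighbouring genes that rose by 6.08 to 10.3 on the log2 scale. Apoe was at 4376, 7059.6, 6631 and 9205 CPM in vehicle and 2556, 4383, 4632 and 5940.1 CPM after LPS+IFNγ, a change of -0.65 ± 0.09 (SE), adjusted p = 0.0002. Abca1, the cholesterol exporter, fell, at -0.32 ± 0.09 (SE), adjusted p = 0.0124, and lipoprotein lipase (Lpl) fell, at -1.40 ± 0.14 (SE), adjusted p = 2.66e-05.

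Genes of energy metabolism rose by small amounts. In the respiratory chain, 41 of 44 nuclear subunits were called up and 0 down, with a median of 0.38. Cox5a, a subunit of complex IV, was at 67.5, 68.8, 59.998 and 64.3 CPM in vehicle and 125, 128, 135 and 117 CPM after LPS+IFNγ, a change of 0.95 ± 0.07 (SE), adjusted p = 1.25e-06. Atp5g1 rose by 0.99 ± 0.08 (SE) and Sdhb by 0.89 ± 0.06 (SE), and Cox4i1 was at 0.00 and not called. In the citric acid cycle 14 of 19 genes rose and 2 fell, with citrate synthase (Cs) at 0.78 ± 0.04 (SE) and Suclg2 at -0.32 ± 0.08 (SE). In glycolysis 13 of 21 rose and 2 fell. Hk2 rose by 1.52 ± 0.19 (SE), Pfkp by 1.31 ± 0.16 (SE) and Pkm by 0.94 ± 0.07 (SE), while Ldhb and the glucose transporter Slc2a3 fell, at -0.45 and -0.53. With libraries scaled by size alone, 26 of the respiratory chain genes and 8 of the citric acid cycle genes were called up, so these small changes depend on the scaling. The 2 falls became 1 in glycolysis without litter 2, 3 or 4, and 1 in the citric acid cycle without litter 1, 3 or 4.

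Genes of protein folding in the endoplasmic reticulum and of tRNA charging rose. Of 22 genes of the unfolded protein response, 16 rose and 1 fell. The chaperone Hspa5 (BiP) was at 356, 298, 284 and 296 CPM in vehicle and 854, 825, 764 and 709 CPM after LPS+IFNγ, a change of 1.36 ± 0.10 (SE), adjusted p = 1.98e-06. Sdf2l1 rose by 2.15 ± 0.13 (SE), Edem1 by 2.24 ± 0.08 (SE) and Xbp1 by 1.19 ± 0.12 (SE), and the sensor Atf6 fell, at -0.31 ± 0.09 (SE), adjusted p = 0.0142. Ddit3 (CHOP), the death-linked factor of this response, was at 0.32 and not called. The call of Atf6 was lost without litter 1 or litter 4.

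In the integrated stress response 12 of 20 genes rose and 1 fell. Atf4 rose by 0.76 ± 0.14 (SE), Atf3 by 2.19 ± 0.50 (SE), Trib3 by 2.37 ± 0.60 (SE) and Nupr1 by 3.55 ± 0.43 (SE). The cystine transporter Slc7a11 was at 153, 209, 202 and 353 CPM in vehicle and 525, 651, 678 and 1038 CPM after LPS+IFNγ, a change of 1.68 ± 0.23 (SE), adjusted p = 0.000167, while the serine synthesis enzyme Phgdh fell, at -0.55 ± 0.15 (SE), adjusted p = 0.0114, a call that was lost without litter 4. Of 20 cytosolic tRNA synthetases 16 rose and 0 fell, with a median of 0.60. Wars, the tryptophan enzyme and a known interferon target, stood apart at 87.1, 89.5, 86.4 and 86.2 CPM in vehicle and 737, 886, 834 and 982 CPM after LPS+IFNγ, a change of 3.29 ± 0.08 (SE), adjusted p = 2.24e-10, against 1.11 for the next member, Kars. Without the litter term 10 of the synthetases were called up.

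Antioxidant genes were split. Of 18 listed for NRF2, 10 rose and 5 fell. Gpx1 rose by 0.86 ± 0.05 (SE) and Srxn1 by 0.69 ± 0.23 (SE), while Nqo1 and Cat fell, at -0.69 and -0.60. The metallothioneins, which bind zinc and copper, also fell. Mt1 was at 899.9, 1262, 1379.6 and 1658 CPM in vehicle and 373, 504, 460 and 534 CPM after LPS+IFNγ, a change of -1.45 ± 0.10 (SE), adjusted p = 9.53e-07, and no stimulated library reached the lowest vehicle level. Mt2 fell, at -0.71 ± 0.08 (SE), adjusted p = 4.08e-05, and Mt3, the form of the nervous system, at -0.47 ± 0.05 (SE), adjusted p = 3.29e-05.

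Genes of the S phase and of mitosis moved in opposite directions. Of 24 replication genes 20 rose and 0 fell, with a median of 0.60 and medians of 0.22 to 0.74 in single litters. The helicase subunit Mcm3 rose by 0.89 ± 0.18 (SE), and Cdc6, which loads it, was at 14.5, 6.07, 9.01 and 4.34 CPM in vehicle and 28.2, 16.2, 22.1 and 13.1 CPM after LPS+IFNγ, a change of 1.31 ± 0.26 (SE), adjusted p = 0.00194. Of 24 mitotic genes 0 rose and 10 fell, with a median of -0.25 and litter medians of -0.59 to 0.09. The kinetochore gene Cenpf fell, at -0.40 ± 0.10 (SE), adjusted p = 0.00883, and cyclin B1 (Ccnb1) fell, at -0.38 ± 0.09 (SE), adjusted p = 0.00527. Mki67 was at 687, 496, 495 and 421 CPM in vehicle and 437, 393, 375 and 419.9 CPM after LPS+IFNγ, a change of -0.35 ± 0.13 (SE), adjusted p = 0.0514, with overlap between the groups. Without litter 1, 2 mitotic genes were called down and 1 up, without litter 2 or litter 3, 6 were called down, and without the litter term 5 replication genes were called up and 2 mitotic genes down, so the mitotic count rests most on litter 1 and both counts rest on the pairing.

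**Figure D4:**
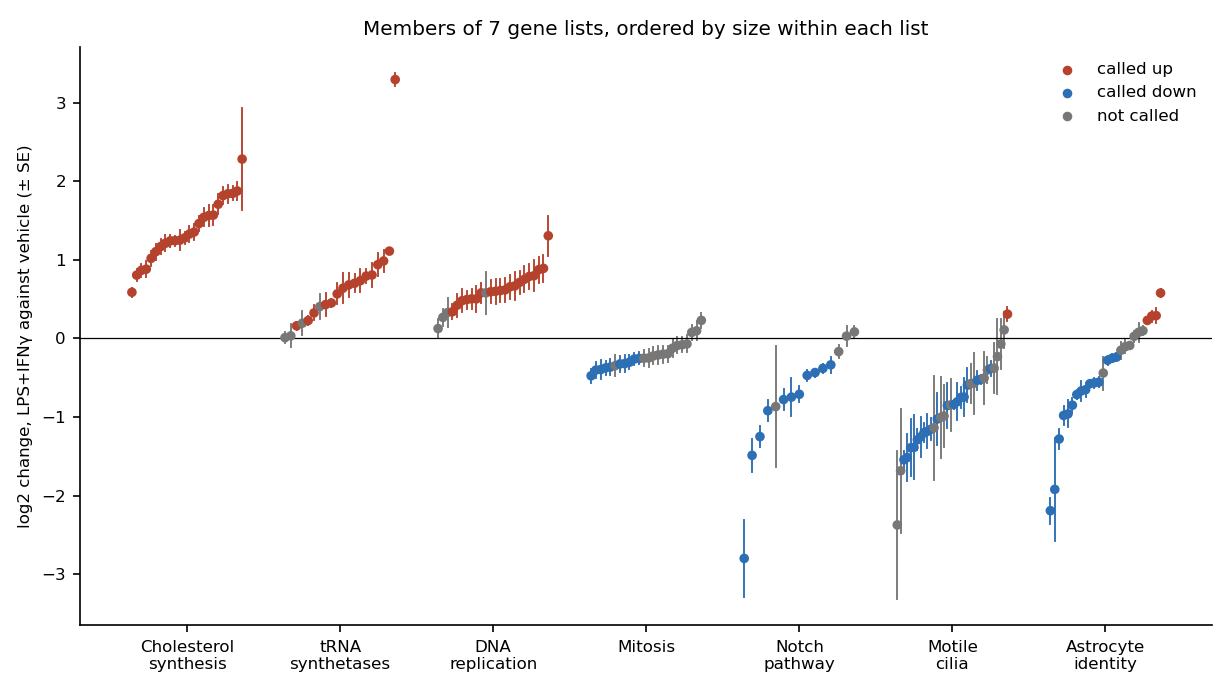
Fitted log2 change with its SE for each tested member of 7 gene lists, ordered by size within a list and coloured by call. All 24 cholesterol genes lie above 0, Wars stands above the other tRNA synthetases at 3.29, and most Notch and motile cilia genes lie below 0.

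The genes that fell furthest were of low abundance. Bulk RNA cannot tell fewer cells of a type from less RNA per cell. Actc1, cardiac actin, was at 10.9, 10.8, 7.09 and 8.63 CPM in vehicle and 0.441, 0.553, 0.362 and 0.554 CPM after LPS+IFNγ, a change of -4.27 ± 0.30 (SE), adjusted p = 1.44e-06. Ppp1r1b (DARPP-32), a phosphatase inhibitor, was at 8.81, 13.8, 13.5 and 13.5 CPM in vehicle and 0.946, 1.24, 1.43 and 1.35 CPM after LPS+IFNγ, a change of -3.31 ± 0.27 (SE), adjusted p = 4.80e-06. The groups were fully apart for both, which the rule that named these genes required. Over all 16066 genes tested, 2775 had every stimulated library below every vehicle library.

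Aspg, an asparaginase that is itself used as a reactive marker, went from 0.644, 1.59, 1.43 and 2.46 CPM to 0, 0, 0.07203 and 0 CPM, or 222 reads to 2, and Lhcgr from 172 reads to 2. The secreted Wnt antagonists Sfrp5 and Wif1 fell by 4.40 and 3.75 on the log2 scale, with adjusted p-values of 0.00169 and 8.26e-05. The decoy receptor Il1r2, which traps IL-1, fell, at -3.46 ± 0.50 (SE), adjusted p = 0.000257.

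Genes that define astrocyte functions tended to fall. Of 26 identity genes 4 rose and 15 fell, with a median of -0.36. The water channel Aqp4 was at 878, 1243, 1100 and 1349 CPM in vehicle and 426, 679.8, 645 and 821 CPM after LPS+IFNγ, a change of -0.85 ± 0.10 (SE), adjusted p = 5.27e-05. The gap junction gene Gja1 (connexin 43) was at 447, 734, 688 and 1047 CPM in vehicle and 189, 348, 427 and 553 CPM after LPS+IFNγ, a change of -0.98 ± 0.12 (SE), adjusted p = 9.32e-05. Aqp4 did not overlap between groups and Gja1 did, although every litter fell in both. Gjb6 (connexin 30) fell, at -1.92 ± 0.65 (SE), adjusted p = 0.0341, the neurotensin receptor Ntsr2 at -2.19 ± 0.17 (SE), adjusted p = 2.63e-06, glutamine synthetase (Glul) at -0.57 ± 0.06 (SE), adjusted p = 3.06e-05 and S100b at -0.96 ± 0.17 (SE), adjusted p = 0.00114. The transcription factor Sox9 was at 0.10 and not called, as was the glutamate transporter Slc1a2 at -0.15, whereas Slc1a3 and Aldh1l1 rose by 0.23 ± 0.04 (SE) and 0.58 ± 0.05 (SE). Without the litter term 2 of the list were called up and 8 down. Of 16 genes for glutamate and potassium, which share several members with that list, 2 rose and 8 fell. The GABA transporter Slc6a11 fell, at -0.63 ± 0.15 (SE), adjusted p = 0.00739, and the potassium channel Kcnj10 was at 0.08 and not called. Without the litter term 4 of these 16 were called down.

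Genes of the Notch pathway fell. Of 15 genes 0 rose and 11 fell, with a median of -0.71. Its target Heyl was at 2.31, 2.46, 2.998 and 2.66 CPM in vehicle and 0.402, 0.653, 0.514 and 0.0819 CPM after LPS+IFNγ, a change of -2.80 ± 0.49 (SE), adjusted p = 0.000925. Hes5, a target that keeps progenitors undifferentiated, was at 41.6, 64.6, 76.8 and 85.8 CPM in vehicle and 20.996, 31.5, 45.3 and 72.96 CPM after LPS+IFNγ, a change of -0.75 ± 0.24 (SE), adjusted p = 0.0275, with every litter lower but the groups overlapping. Hey2 and Nrarp fell, at -1.49 and -1.25, as did the ligands Dll1 and Dll3, at -0.78 and -0.92, and the receptors Notch2 and Notch3, at -0.43 and -0.47. Notch1 and Jag1 were at 0.08 and 0.03 and not called.

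In the TGF-β and BMP list 7 of 22 rose and 9 fell. Bmp7 rose by 2.25 ± 0.21 (SE), while Bmp6 fell, at -2.15 ± 0.35 (SE), adjusted p = 0.000608, and the BMP target Id4 fell, at -1.28 ± 0.12 (SE), adjusted p = 1.56e-05. Smad3 rose by 0.33 ± 0.06 (SE), and Bmp2 was at -0.74 with an adjusted p of 0.373. The counts were 5 up and 5 down without litter 4, 4 up and 5 down without the litter term, and 3 up and 10 down with libraries scaled by size alone.

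Genes of motile cilia fell. Of 34 tested 1 rose and 19 fell, with a median of -0.84. Foxj1, the master factor of motile cilia, was at 173, 205, 232 and 202 CPM in vehicle and 121, 140.1, 166 and 138 CPM after LPS+IFNγ, a change of -0.52 ± 0.05 (SE), adjusted p = 2.38e-05. Structural genes such as Ccdc40, Cfap54 and Tekt1 fell, at -1.29, -1.20 and -1.52. Without the litter term 11 were called down, and without litter 4, 12. Genes of intraflagellar transport, which all cilia use, had a median of -0.13, with 1 up and 9 down of 22.

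Among genes of the extracellular matrix more were called down than up. Of 27 matrix genes 4 rose and 12 fell. Tenascin C (Tnc) was at 87.8, 53.9, 51.9 and 36.9 CPM in vehicle and 282, 153, 174 and 78.6 CPM after LPS+IFNγ, a change of 1.51 ± 0.21 (SE), adjusted p = 0.000214. Hapln1, which links hyaluronan to proteoglycans, fell, at -1.39 ± 0.31 (SE), adjusted p = 0.00452, as did elastin (Eln), at -1.15 ± 0.14 (SE), adjusted p = 7.54e-05, and tenascin R (Tnr), at -0.98 ± 0.14 (SE), adjusted p = 0.000211. Of 17 proteases and inhibitors 5 rose and 8 fell, with Mmp2 at -1.27 ± 0.15 (SE), Adamts5 at -1.31 ± 0.30 (SE) and Timp4 at -1.37 ± 0.15 (SE) against Mmp19 at 1.64 ± 0.20 (SE). Without the litter term 5 matrix genes and 5 of the proteases and inhibitors were called down. Of 19 growth factors 5 (26.3%) were called up and 4 (21.1%) down, near the 23.7% and 20.2% of all genes, and the up calls became 2 without litter 2 and 3 without litter 1 or 4. Bdnf and Fgf1 fell, at -1.56 ± 0.18 (SE), adjusted p = 5.58e-05 and -1.11 ± 0.09 (SE), adjusted p = 6.10e-06, and Nrg1 and Vegfa rose by 1.59 ± 0.30 (SE) and 0.73 ± 0.23 (SE). The change of Nrg1 was 1.33 from the deposited CPM, of which 73.9% is held by the transcripts summed here.

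Several other lists had medians near 0. For lysosomal genes 6 of 30 (20%) rose and 6 (20%) fell, with a median of 0.01, near the 23.7% up and 20.2% down of all genes. The immune protease Ctsc rose by 1.13 ± 0.26 (SE), or by 1.47 from the deposited CPM, of which 42.8% is held by the transcripts summed here. For autophagy 2 of 27 rose and 9 fell, with a median of -0.09. For ribosome biogenesis 10 of 25 rose and 0 fell, with a median of 0.16, and the up calls became 5 without litter 1 or 3, 6 without litter 2, 3 without the litter term and 4 with libraries scaled by size alone. For the circadian clock 3 of 17 rose, led by Nfil3 at 1.46 ± 0.29 (SE), and 8 fell, led by Per3 at -0.67 ± 0.12 (SE). The change of Per3 was -0.56 from the deposited CPM, of which 73.0% is held by the transcripts summed here. Targets of Sonic hedgehog and Wnt signalling showed 3 up and 4 down of 15, and synaptogenic factors 3 up and 4 down of 15. In both lists that is 20% up and 26.7% down, near the shares of all genes. Without litter 2 or 4 only 1 autophagy gene was called up. Without the litter term 2 lysosomal genes, 3 clock genes and 2 synaptogenic factors were called down and 1 clock gene up, and with libraries scaled by size alone 12 lysosomal and 16 autophagy genes were called down.

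**Figure D5:**
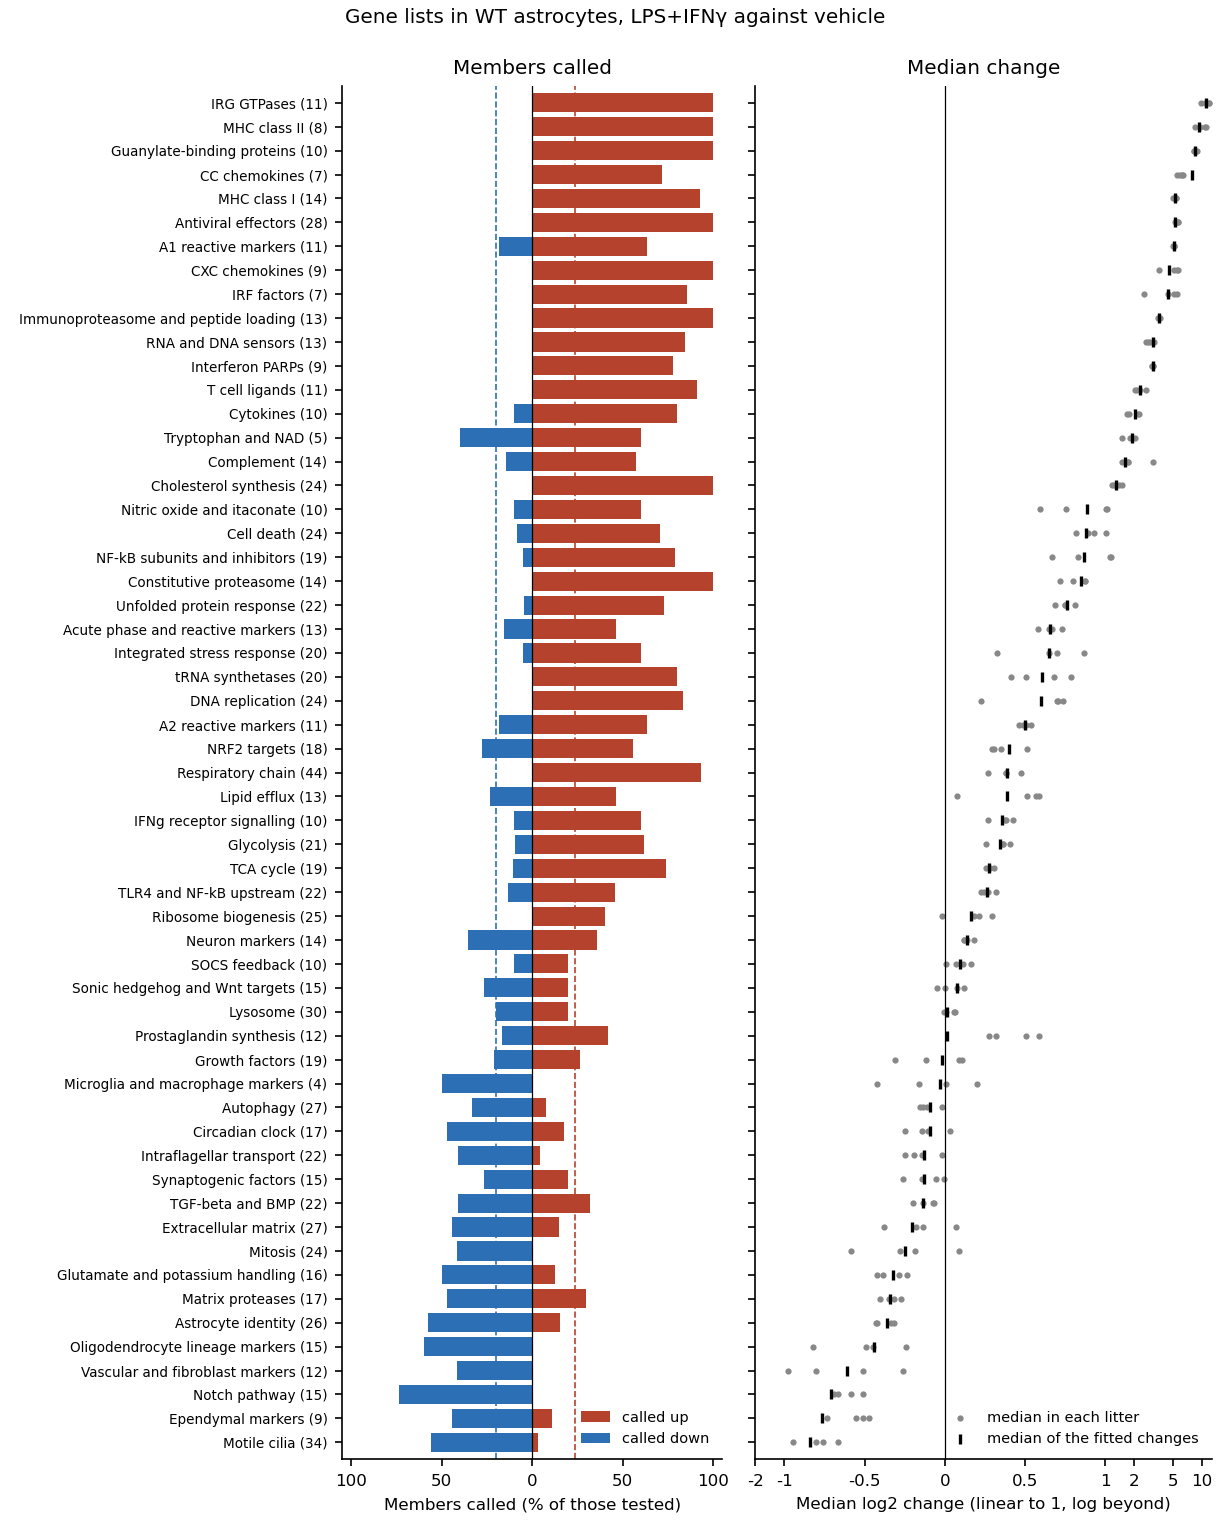
Left, share of tested members (number in brackets) called up (red) or down (blue) in each of the lists, with dashed lines at the shares over all genes tested, 23.7% up and 20.2% down. Right, median log2 change of each list as fitted (black) and in each litter (grey), where the lists of interferon, antigen presentation and chemokine genes stand at the top and those of cilia and Notch genes at the bottom.

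Markers of other cells were measured in the same libraries. The astrocyte markers Sox9, Gfap, Aqp4, Aldh1l1 and Slc1a3 were all above 145 TPM in every WT library, while S100b ranged from 22.6 to 54.9 TPM in vehicle and from 8.78 to 23.9 TPM after LPS+IFNγ. Of 20 microglia and macrophage markers listed only 4 passed the filter on low counts, of which 0 rose and 2 fell, and the summed level of the whole list ranged from 95.85 to 122 TPM in vehicle and from 59.55 to 85.91 TPM after LPS+IFNγ. Aif1 (Iba1) had at most 5 reads in any WT library and Cx3cr1 at most 3, and both were at 0 in several libraries. Oligodendrocyte lineage markers were present and fell, with 0 up and 9 down of 15 and a summed level of 3087 ± 243 TPM in vehicle and 2356 ± 212 TPM after LPS+IFNγ. Pdgfra, which marks their precursors, was at 130, 124, 139 and 129 CPM in vehicle and 38.5, 54.5, 51.1 and 64.6 CPM after LPS+IFNγ, a change of -1.34 ± 0.13 (SE), adjusted p = 1.28e-05. Olig2 was at -0.06 and not called, and without the litter term 1 of the list was called down, against 5 without litter 1 or litter 2. Of 9 ependymal markers 1 rose and 4 fell, among them Foxj1, which is also counted in the motile cilia list. Nnat and Cd24a led these falls, and Ccdc153 was not called. The part of ependymal cells in the falls of the motile cilia genes was not tested.

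Of 14 neuron markers 5 were called up and 5 down. Those counts were 3 and 3 without litter 3, and 3 were called down without litter 1 or litter 2. Tubb3 was at 10.5, 10.8, 10.1 and 10.5 CPM in vehicle and 81.9, 65.8, 70.6 and 53.3 CPM after LPS+IFNγ, a change of 2.68 ± 0.16 (SE), adjusted p = 4.71e-07, while Rbfox3 (NeuN) stayed below 2.10 TPM in every library. Of 12 vascular and fibroblast markers 0 rose and 5 fell, led by Kdr and Pdgfra, of which Pdgfra is also counted among the oligodendrocyte lineage markers. Pdgfrb, Rgs5, Col1a1, Dcn and Lum were not called, and the endothelial marker Cldn5 had at most 4 reads in any WT library. The part of these cells in the falls of the identity, Notch and matrix genes was not tested.

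Some of the induced genes lie side by side in the genome. Runs of 3 or more neighbouring tested genes that all rose by 1 or more numbered 36 and held 154 of the 945 such genes. Runs of genes that all fell by as much numbered 9 and held 27 of 747. Whether these counts exceed those of a random gene order was not tested. The longest run held 11 genes of the MHC region, from H2-DMa to H2-Eb2 (chr17:34338515-34560386, build GRCm39), and mixed class II genes with Psmb8, Psmb9, Tap1 and Tap2, with a median change of 8.10. Runs of 10 genes were the Ifi200 family of DNA sensors (chr1:173296051-173859456) and the Irgm1, Tgtp and Ifi47 cluster (chr11:48752795-48987813). A run of 7 held Gbp genes from Gbp8 to Gbp11 (chr5:105162016-105494338), and runs of 3 and 4 held Ccl2, Ccl7 and Ccl8 (chr11:81926397-82007625) and Cxcl9, Art3, Cxcl10 and Cxcl11 (chr5:92469206-92566011). Among the runs that fell were Pdgfra, Kit and Kdr (chr5:75311994-76139884), 3 receptor tyrosine kinases with a median change of -1.35. Reads shared between near-identical neighbours may tie members of a run together.

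The same exposure of Nlrx1-/- astrocytes was compared gene by gene, and edgeR's test of the difference between the genotypes called 0 genes at an adjusted p below 0.05, against 2469 at an unadjusted p below 0.05. The study's own test of this difference, with DESeq2 and the same design, did report genes at that adjusted threshold. The count of 0 therefore holds for the test used here and is not evidence that the genotypes respond alike. For Gbp2 the fitted change was 8.40 in WT and 9.10 in Nlrx1-/- cells, and for C3 it was 7.77 and 6.51.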

How the data were processed

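Poly-A RNA of 8 WT wells was sequenced, unstranded. The authors quantified reads with Salmon 1.7.0 on GRCm39 transcripts, and deposited estimated counts (expected counts) and TPM for each transcript. They also deposited a table of scaled counts per gene, handled here as a signal because its columns do not sum to a fixed total, and its log2 values, made by the authors with tximport, TMM scaling and limma 3.58.1. Here 106440 of 129698 transcripts, holding 96.7 to 97.3% of the reads, were paired with a symbol through RefSeq accessions, and their estimated counts were summed to 35297 genes and rounded.

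Genes were tested with edgeR 4.0.16 (R 4.3.3), using filterByExpr with a minimum count of 10, TMM factors, length offsets, glmQLFit and glmQLFTest. The design held genotype, litter within genotype and condition within genotype over all 16 libraries, after the study's own formula, and p-values were adjusted by Benjamini-Hochberg. The labels state that both wells of a replicate come from the same mice, and wells of a litter deviated together (correlations of 0.14 to 0.43 within litters and -0.30 to 0.04 between). On simulated data with 200 of 16066 genes changed by 1 log2 unit, 69.5% of them were recovered and 8 unchanged genes were called. The simulated rises and falls were few and equal in number, unlike the measured response, so these rates need not hold for it.

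Named genes are the 15 largest rises and falls that reach 1 CPM with no overlap and with at least 90% of their deposited level held, the 10 largest gains and losses of TPM, members of 57 gene lists, genes the paper names, and members of runs of neighbours. A few genes that the rule names are not reported here. The members and lists were chosen with earlier results of these data known. Gene positions are from GENCODE (GRCm39), and promoters from RefSeq (GRCm38.p6). Vehicle groups without reads were set to 3 reads over 4 libraries, and 95% intervals are exact Poisson and cover counting error only. TPM shares in 4 paired litters cannot reach an exact two-sided p below 0.125 and are given as values. DESeq2 1.42.0, voom and other settings were run as alternatives. Replicates are separate sets of pups. With the litter term in the design, p-values measure the spread of the response between litters, estimated over the litters of both genotypes.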

Additional observations from a re-analysis of the deposited data

Results flagged for a closer look

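Dixon's test was applied to the 4 litters of each condition for each gene named, 488 groups in all, and marked 19 of them, 3.89%, where chance alone marks about 1 in 20. After LPS+IFNγ, 1 litter lay far below the others for Cd44 in litter 1 (134.8 CPM, others 160.6 to 165), Cox4i1 in litter 1 (305.7 CPM, others 378.1 to 380.6) and Eln in litter 4 (7.319 CPM, others 10.21 to 10.75). The same held for Ifi47 in litter 1 (516.1 CPM, others 629.9 to 645.6), Jak2 in litter 3 (210.8 CPM, others 248 to 254.8) and Mt3 in litter 1 (434.1 CPM, others 587.1 to 603.2). It held too for Ptges in litter 1 (11.94 CPM, others 19.36 to 20.76) and Timp1 in litter 1 (9.069 CPM, others 10.87 to 11.18). After LPS+IFNγ 1 litter lay far above the others for Ccl27a in litter 4 (5.484 CPM, others 3.437 to 3.665), Gbp11 in litter 4 (120.8 CPM, others 75.54 to 80.34) and Jak1 in litter 4 (226.3 CPM, others 201.2 to 202.8). This was also so for Lpl in litter 1 (9.309 CPM, others 6.45 to 6.831) and Nrarp in litter 4 (29.92 CPM, others 18.41 to 20.02). In vehicle, 1 litter lay far below the others for Igtp in litter 4 (7.166 CPM, others 8.119 to 8.305) and Ppp1r1b in litter 1 (8.809 CPM, others 13.48 to 13.77). In vehicle, 1 litter lay far above the others for Edem1 in litter 1 (34.24 CPM, others 29.26 to 29.5), Il1r2 in litter 2 (2.473 CPM, others 1.741 to 1.84) and Jak2 in litter 1 (141.5 CPM, others 135.6 to 136.5). Likewise high was Tekt1 in litter 3 (7.822 CPM, others 5.145 to 5.497). No cause for these single libraries was tested.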

How the results depend on the processing

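Of 278 genes named, 250 were called and 212 of those kept their direction and their call under every alternative tried. The counts of calls up, down, and up or down by 1 or more were 3813, 3240, 945 and 747, and stayed within 1.5 times of these under DESeq2, limma-voom, limma on the deposited log2 values, DESeq2 size factors, no length offsets, no filter on low counts and the WT libraries alone. Scaling by library size alone gave 2433 up, 5384 down and 1133 down by 1 or more, because the median change moved to -0.18. An adjusted p below 0.01 gave 2811 up and 2037 down. Without the replicate block, 3037 genes were called up and 2341 down, and 27 named genes lost their call, among them Aqp4, Gja1, Apoe and Hes5. Leaving out 1 litter at a time gave 3088 to 3362 up, 2390 to 2571 down, 870 to 931 up by 1 or more and 595 to 677 down by 1 or more. Of single genes only Cox4i1 changed sign with its call, from 0.00 (not called) to -0.16 (called) under library size alone, which also lost the calls of Cxcl12, Ifitm2, Slc1a3, Socs3, Srxn1 and Vegfa. Gfap was called with the WT libraries alone, at -0.45, and under library size alone, at -0.60. The medians of 8 lists lying between -0.03 and 0.16 changed sign under at least 1 alternative. Depth limits genes without vehicle reads to lower bounds, and genes under about 1 CPM have standard errors of up to 1 log2 unit or more.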

Other observations

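Some of the largest rises belong to genes outside the groups described above. Serpina3f, a serine protease inhibitor of a cluster that has expanded in mice, had 0 reads in vehicle and 108, 145, 118 and 125 CPM after LPS+IFNγ, at least 5743-fold higher with the vehicle at its floor of 3 reads. Apol6 of the apolipoprotein L family had 0 vehicle reads and 142, 129.7, 116 and 108 CPM, at least 5734-fold higher. Ubd, a ubiquitin-like modifier that directs proteins to the proteasome, went from 0 vehicle reads to 27.2, 60.5, 35.6 and 65.1 CPM, at least 2183-fold higher. Ly6a (Sca-1), a surface antigen used to sort stem cells, went from 0 vehicle reads to 50.7, 75.95, 74.5 and 83.4 CPM, at least 3295-fold higher. Each of these was absent from every vehicle library. Presence in every stimulated library was a condition of the rule that named them. Tgtp1 was at 0.0653, 0.0714, 0.132 and 0 CPM in vehicle and 1485, 1789, 1595 and 1849 CPM after LPS+IFNγ and Gbp6 at 12.96, 15.4, 14.03 and 16.3 CPM in vehicle and 3376, 3721, 3622 and 4392 CPM after LPS+IFNγ, both with near-identical neighbours.

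Several abundant transcripts of these cultures lost TPM. Cystatin C (Cst3), a secreted protease inhibitor, was at 819, 1157, 1139 and 1414 CPM in vehicle and 418, 664, 722 and 830.3 CPM after LPS+IFNγ, a log2 change of -0.80 ± 0.11 (SE), adjusted p = 0.000202. Carboxypeptidase E (Cpe), which matures neuropeptides, fell, at -0.50 ± 0.06 (SE), adjusted p = 0.000101, and the growth factor pleiotrophin (Ptn) fell, at -0.41 ± 0.06 (SE), adjusted p = 0.000297. Neuronatin (Nnat) was at 646, 1026, 857 and 1215 CPM in vehicle and 350.1, 506, 479 and 575 CPM after LPS+IFNγ, a change of -0.95 ± 0.12 (SE), adjusted p = 8.49e-05, and Pea15a, a phosphoprotein enriched in astrocytes, fell, at -0.51 ± 0.04 (SE), adjusted p = 3.50e-06. All 4 litters fell for each of the 5 genes, and the groups overlapped for Cst3 and Cpe. Among low-abundance genes, Ripply1 fell, at -4.53 ± 0.99 (SE), adjusted p = 0.00371, the epithelial adhesion gene Epcam at -3.50 ± 0.68 (SE), adjusted p = 0.00183, the matrix genes Col15a1 and Ccn5 at -3.27 ± 0.70 (SE), adjusted p = 0.00344 and -3.21 ± 0.59 (SE), adjusted p = 0.00176, Adamts16 at -4.29 ± 1.15 (SE), adjusted p = 0.0118, Fstl4 at -3.83 ± 0.72 (SE), adjusted p = 0.00152 and the histone gene H2bc8 at -3.43 ± 0.69 (SE), adjusted p = 0.00238.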
